A study of Bos taurus with 56 samples.

Results

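Of the 482097 regions that were open in oocytes or early embryos of cattle (Bos taurus), 5022 were broad and were found in the day 14 elongating embryo alone. The members were chosen from the peak lists themselves. Overlapping peaks of all 11 deposited lists were joined into regions, and a region was kept if it was 1000 bp or wider, held a day 14 peak and held no peak of the other 10 lists. Presence and width therefore chose the regions and are given as a description, with no test. Each of the 5022 regions was a single day 14 peak, and together they were 1.35% of the 372509 day 14 peaks and 5.7% of the bases that those peaks covered.

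The assay was ATAC-seq. A transposase cuts accessible DNA and leaves sequencing adapters at the cuts, and fragments then accumulate as peaks over open chromatin. The 56 libraries came from pools of oocytes or embryos. They comprised GV (germinal vesicle) oocytes (6 libraries), MII (metaphase II) oocytes (5), 2-cell (6), 4-cell (6), 8-cell (5) and 16-cell embryos (5), morulae (6), blastocysts (3), morulae derived in vivo (4), blastocysts derived in vivo (4) and day 14 elongating embryos (6). The labels give no treatment, genotype, breed, sex or culture condition for any group, and do not say how the embryos without the in vivo label were produced.

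By day 14 the bovine embryo has hatched and is growing from a sphere into a long filament ahead of implantation. Most of its cells are trophectoderm, the outer layer that later forms the fetal part of the placenta and secretes interferon tau, the signal that maintains pregnancy in ruminants. Hypoblast lines its inside, and a small embryonic disc holds the epiblast. The pools were of whole embryos, so an open region cannot be assigned to any of these layers. Broad accessible regions are commonly found over active promoters, CpG islands and groups of neighbouring enhancers.

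The deposited lists hold positions alone, with 1 merged list per stage, and neither depth nor peak height is known. The lists were of very unequal length, from 730 peaks in MII oocytes to 372509 at day 14, with 59186, 75925, 88858 and 57039 in the 8-cell, 16-cell, morula and in vivo morula lists and at most 5810 in each of the other 6. A region in no other list may thus be one that a shorter list missed. With 1 list per stage there is no spread between replicates, and no p-value is given. Shares carry 95% exact Clopper-Pearson intervals, which cover counting error only and treat neighbouring regions as independent.

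Whether a broad day 14 peak counted as open at another stage depended on the overlap asked for. Of 16130 day 14 peaks of 1000 bp or more, the 5022 members made up 31.1%, against 81.6% of day 14 peaks of any width in no other list (84% when counted over union regions). With 1 bp of overlap enough, a wide peak has more bases at which it can meet another list than a narrow one. The part of this in the difference was not tested. When another list counted only if it covered 50% or more of the bases, 50.3% of the broad peaks were in no other list. Joining peaks up to 500 bp apart made a different set of broad regions, and 47.8% of those held no peak of another list. The share in no other list was 90.7% for peaks of 125 to 199 bp, 48.6% (interval 47.8% to 49.5%) for 750 to 999 bp, 36.8% (35.7% to 38%) for 1000 to 1249 bp and 17.2% (13.7% to 21.2%) for 3000 bp or more. It was lower in each wider class.

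Member widths were strongly skewed towards the cutoff. The median was 1256 bp, the quartiles were 1098 and 1545.8 bp, and 2473 members (49.2%) were narrower than 1250 bp. At the other end, 391 members (7.79%) were 2000 to 2999 bp wide and 71 (1.41%) were 3000 bp or wider. Broad day 14 peaks found in another list as well, 11108 in number, had a median of 1351 bp and reached 14806 bp. The cutoff fell on a smooth slope, with 13 members of exactly 1000 bp and 13 day 14 only regions of 999 bp, and with 148 regions of 1000 to 1009 bp against 170 of 990 to 999 bp. On the side of absence, 66 members lay within 100 bp of a peak of another list, and 89 broad peaks were left out for an overlap of 100 bp or less. A cutoff of 800 bp would have given 9341 members and one of 1500 bp 1391, and 8111 regions met the rule when another list counted only if it covered 50% or more of the bases.

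**Figure D1:**
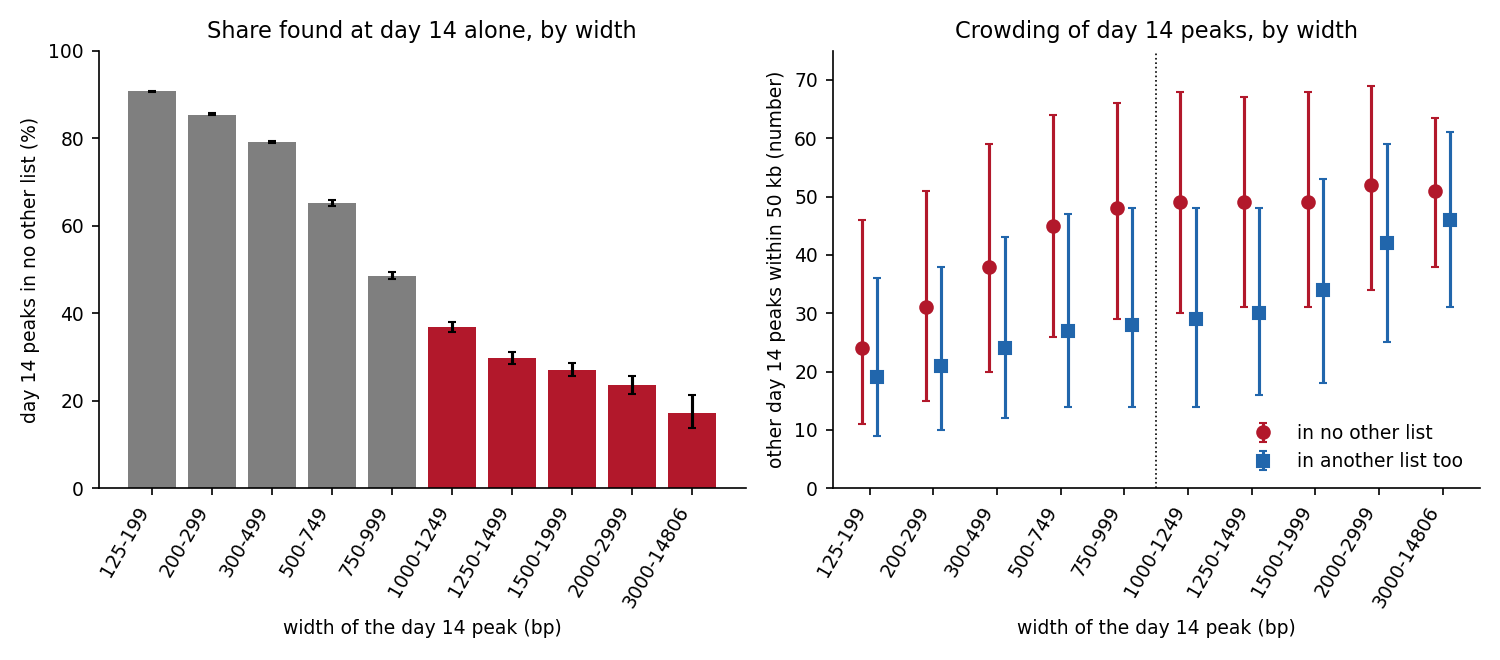
Left, share of day 14 peaks in no other list (%) by peak width (bp), with 95% exact intervals; red bars are the broad regions. Right, number of other day 14 peaks within 50 kb by width (points, medians; bars, quartiles) for peaks in no other list (red) and in another list too (blue); the dotted line is the 1000 bp cutoff. The share falls from 90.7% to 17.2%, and the red medians go from 24 in the narrowest class to 49 just above the cutoff.

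The 10 widest members lay on 9 chromosomes and ranged from 4009 to 7488 bp (positions in build UMD3.1, counted from 1). The widest was on chromosome 26 from 51474440 to 51481927, 0.202 Mb from the last position of that chromosome in any list. The second, of 7063 bp, was on chromosome 18 (49156387 to 49163449), and the third, of 6900 bp, on chromosome 15 (42767077 to 42773976). These 3 lay 8.43, 9 and 7.3 kb from the nearest peak of any other stage.

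Next in width were regions of 6021 bp on chromosome 14 (2116962 to 2122982), 5553 bp on chromosome 5 (27175214 to 27180766) and 5355 bp on chromosome 29 (46146254 to 46151608). That on chromosome 14 was 1 of 10 members in an unbroken run, meaning that each lay at most 50 kb from the next, and that of 5355 bp was 1 of 8. The 5553 bp region differed from these in that a morula peak lay only 308 bp away. The remaining 4 of the 10 were 5203 bp wide on chromosome 13 (67764177 to 67769379), 4379 bp on chromosome 21 (71312633 to 71317011), 4093 bp on chromosome 22 (57351567 to 57355659) and 4009 bp on chromosome 26 (24652823 to 24656831). Their nearest peaks of another stage were 1.56 to 3.71 kb away. All 10 had other day 14 peaks around them, from 30 to 78 within 50 kb of the midpoint, with the nearest 138 to 708 bp away.

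Chromosomes differed widely in how many members they held. Density was highest on chromosome 25, with 330 members or 7.69 per Mb, 4.08 times the mean over all chromosomes, followed by chromosome 19 with 448 members (7 per Mb, 3.71 times) and chromosome 29 with 205 (3.98 per Mb, 2.11 times). Chromosomes 18 (2 times), 22 (1.91 times) and 11 (1.87 times) came next. Chromosomes 18, 19 and 25 are known as gene-dense in cattle, and together they held 1027 members, 20.5% (interval 19.3% to 21.6%), against 13.3% of all day 14 peaks. Member density on these 3 chromosomes was 3.7 times that on the rest, whereas the ratio was 2.3 for the 298786 narrow regions found at day 14 alone and 2.59 for broad peaks found in another list as well. The difference from those broad peaks depended on width. At 1000 to 1249 bp, 20.3% of members and 13.6% of those peaks lay on the 3 chromosomes. The shares were 19.4% and 18% at 2000 to 2999 bp. From 3000 bp the order was reversed, with 15.5% of 71 members against 24.3%. Among the 3, chromosome 18 stood apart, since its member density of 2 times the mean was below the 2.29 times of broad peaks found elsewhere. The autosomes with the fewest members per Mb were chromosome 9 (60 members, 0.301 times the mean), chromosome 1 (124, 0.415 times) and chromosome 27 (36, 0.42 times).

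**Figure D2:**
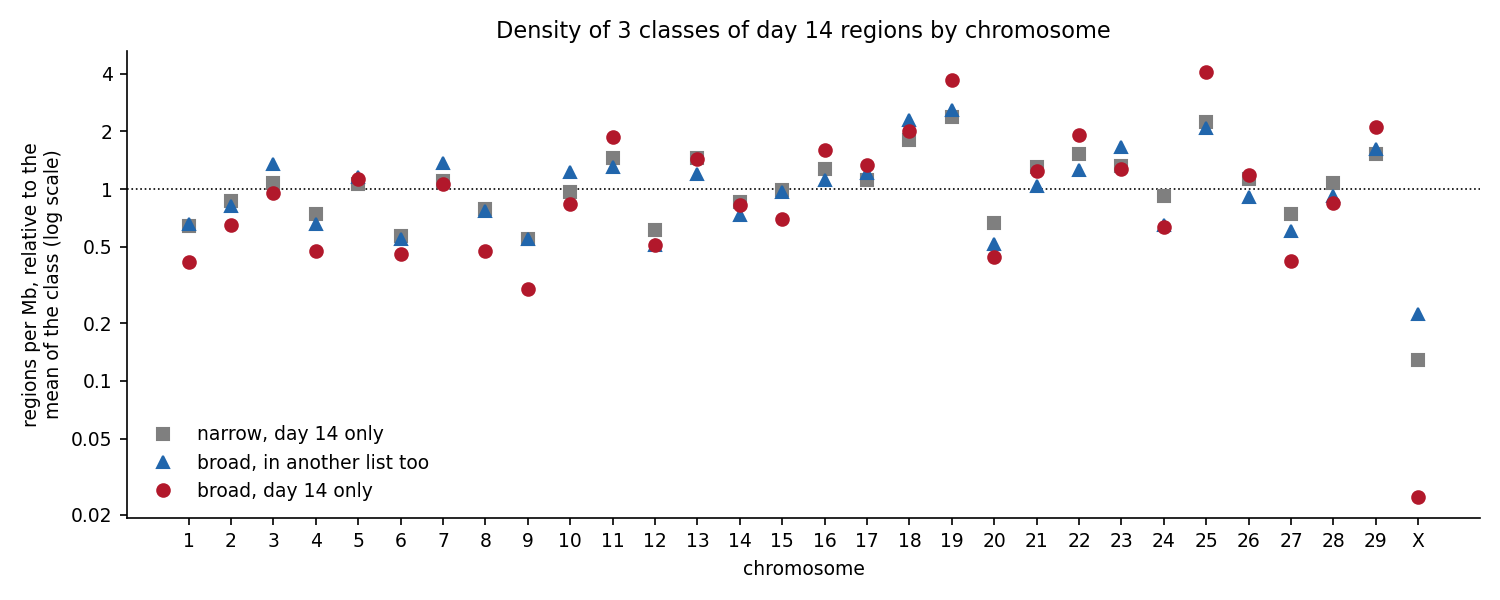
Regions per Mb on each chromosome, divided by the mean of the class over all chromosomes (log scale), for broad day 14 only regions (red circles), narrow day 14 only regions (grey squares) and broad day 14 peaks found in another list too (blue triangles). The red points spread most, from 0.0249 on X to 4.08 on chromosome 25.

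The X chromosome held almost none of the regions. It carried 7 of 5022 members, 0.139% (interval 0.0561% to 0.287%), against 1.02% of all day 14 peaks, 0.723% of narrow day 14 only regions and 1.25% of broad peaks found elsewhere. The share of members on X was 0.308% when another list counted only if it covered 50% or more of the bases, and 0.0651% when the other lists were widened by 500 bp. Of the 146 broad day 14 peaks on X, 4.79% (interval 1.95% to 9.63%) were in no other list, whereas on the autosomes it was 5015 of 15984, or 31.4% (30.7% to 32.1%). Narrow day 14 peaks had a lower share on X too. There 2161 were in no other list and 1508 in another, against 296625 and 56085 on the autosomes. X had 25.6 day 14 peaks per Mb and the autosomes 147 per Mb, while regions of the other 10 lists numbered 39.8 and 69.8 per Mb. The low share on X thus went together with few day 14 peaks for each region of another stage, 0.643 on X and 2.1 on the autosomes, and the part of this in the result was not tested. The widest X member ran from 92291198 to 92292916 (1719 bp), 0.439 kb from a morula peak. All 7 lay within 10 kb of a peak of another stage. A group of 3, singled out after the positions were seen, lay between 138703330 and 139036632.

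Chromosome by chromosome, the share of broad day 14 peaks that were in no other list went from 19.8% (interval 15.5% to 24.7%) on chromosome 9 to 46.8% (43.1% to 50.6%) on chromosome 25 among the autosomes. Chromosomes 22 (41%), 19 (39.5%), 11 (39.4%) and 16 (39.3%) were near the top. A high density of day 14 peaks did not always go with a high share. Chromosome 18 had 28.3% (25.3% to 31.4%) at 1.78 times the mean density of the day 14 list, chromosome 23 had 25.9% at 1.33 times, chromosome 7 had 26.1% at 1.13 times and chromosome 3 had 24.2% at 1.11 times. On the autosomes with the highest and the lowest share, chromosomes 25 and 9, regions of the other stages numbered 61.6 and 70.9 per Mb, and day 14 peaks 297 and 81.1 per Mb.

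**Figure D3:**
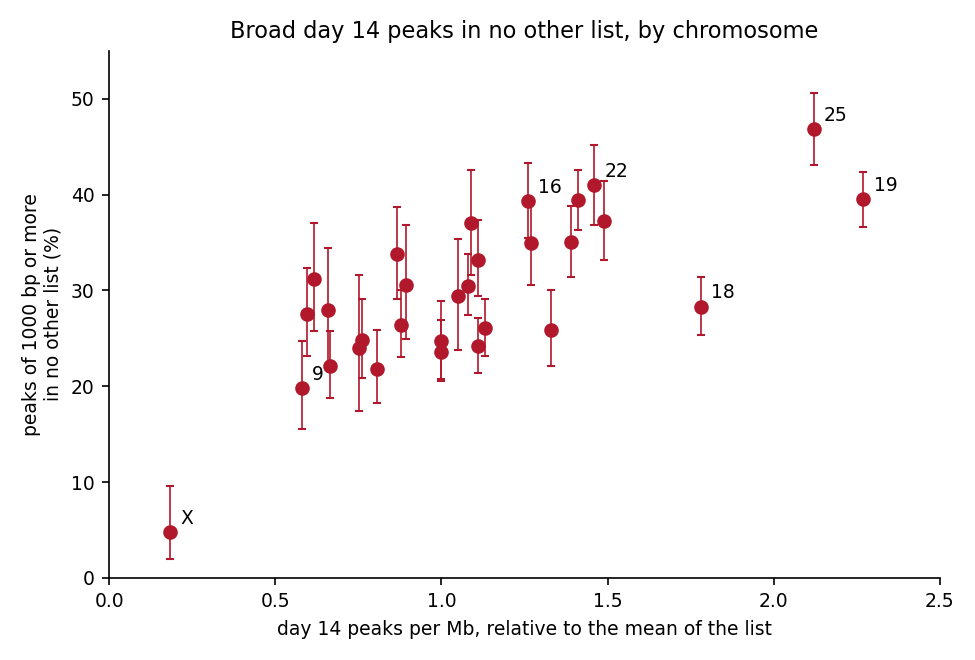
Each point is a chromosome, with the density of all day 14 peaks relative to the mean of the list on the horizontal axis and the share of day 14 peaks of 1000 bp or more in no other list (%, with 95% exact intervals) on the vertical axis. X is lowest at 4.79% and chromosome 25 highest at 46.8%, and chromosome 18 lies at 28.3% at a density of 1.78 times the mean.

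Along the autosomes, the members gathered towards the distal end. Cattle autosomes are acrocentric, and their sequence is numbered from the centromeric end. Of 5015 autosomal members, 936 (18.7%, interval 17.6% to 19.8%) lay in the last 5 Mb of their chromosome, against 11.1% of all autosomal day 14 peaks. For narrow day 14 only regions the share was 11.7% (11.6% to 11.8%), and for broad peaks found elsewhere 8.81% (8.28% to 9.35%). The first 5 Mb held 7.5% of the members (6.78% to 8.26%), against 5.6% of all day 14 peaks and 4.94% of broad peaks found elsewhere. When each autosome was cut into 10 equal parts, the last part held 1312 members (26.2%), the first 474 (9.45%) and the fifth 284 (5.66%). Broad peaks found elsewhere had 14.8%, 7.37% and 8.8% in the same parts.

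The distal excess was not found on every autosome. The members' share in the last 5 Mb was above that of narrow day 14 only regions on 23 of 29 autosomes, and above that of broad peaks found elsewhere on 21 of 29. It was largest on chromosome 17, with 49.2% of members there against 25.6% of narrow regions, and was also high on chromosomes 29 (40% against 30.2%), 21 (36.5% against 20.6%) and 22 (32.9% against 22.4%). On chromosome 19, the second densest in members, only 3.35% lay in the last 5 Mb, against 4.73% of narrow regions. Day 14 peaks as a whole were denser in the last 5 Mb, at 282 per Mb against 138 per Mb in the rest of the autosomes, whereas regions of the other 10 lists were equally frequent in both, at 69.7 and 69.8 per Mb. The part of that density in the distal excess was not tested. Of the broad day 14 peaks in the last 5 Mb, 49.2% (46.9% to 51.5%) were in no other list, and in the first 5 Mb 41% (37.8% to 44.2%), against 28.1% (27.4% to 28.9%) in between. Narrow day 14 peaks also had a higher share in the last 5 Mb. There 34708 were in no other list and 4283 in another, against 261917 and 51802 in the rest of the autosomes.

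**Figure D4:**
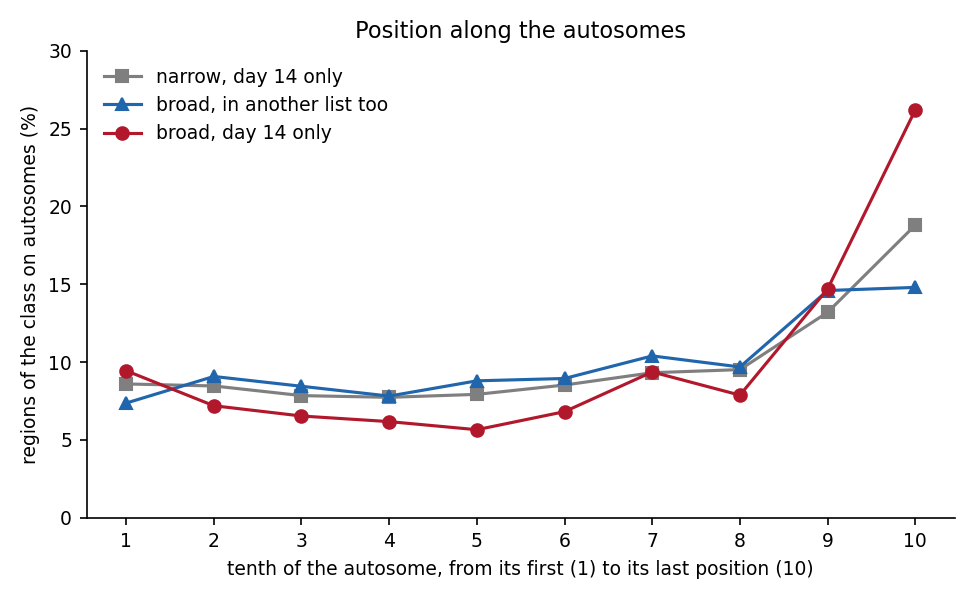
Share of each class of autosomal regions (%) in 10 equal parts of the chromosome, from the first position (1) to the last (10). Broad day 14 only regions (red) reach 26.2% in the last part, above narrow day 14 only regions (grey, 18.8%) and broad day 14 peaks found in another list too (blue, 14.8%).

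Members lay where day 14 peaks were crowded. A member had a median of 49 other day 14 peaks within 50 kb of its midpoint (quartiles 31 and 68), against 30 (14 and 52) for narrow day 14 only regions and 32 (17 and 51) for broad peaks found elsewhere. The members' median was higher than that of narrow regions on 30 of 30 chromosomes, and higher than that of broad peaks found elsewhere on all 30 as well. The difference was present at the chromosome ends and away from them, with medians of 66 for members and 50 for narrow regions in the last 5 Mb, and 46 and 28 in the rest of the autosomes. For regions of the other 10 lists the difference from the narrow regions was smaller and in the same direction, with a median of 8 within 50 kb of a member (quartiles 5 and 12) and 7 of a narrow region (4 and 11). It was 12 for broad peaks found elsewhere, which were chosen for overlapping such a region, so a higher number is partly built in.

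The crowding reached down to the nearest neighbour. The gap from a member to the next day 14 peak had a median of 353 bp, against 838 bp for narrow day 14 only regions and 580 bp for broad peaks found elsewhere. Another day 14 peak lay within 1 kb of 4083 members (81.3%, interval 80.2% to 82.4%), against 55.1% of all day 14 peaks. When peaks up to 500 bp apart were joined, 17223 regions met the rule in place of 5022. Only 157 members (3.13%) had no other day 14 peak within 5 kb of the midpoint, against 15.8% of narrow day 14 only regions. The nearest day 14 neighbour was itself in no other list for 88.5% of members (87.6% to 89.4%) and for 87.5% of narrow day 14 only regions, against 80.9% of all day 14 peaks.

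Width within the members changed these values little. The median number of day 14 peaks within 50 kb was 49 for members of 1000 to 1249 bp, 49 at 1250 to 1499 bp, 49 at 1500 to 1999 bp, 52 at 2000 to 2999 bp and 51 from 3000 bp. The share in the last 5 Mb lay between 18.1% and 20.5% in these 5 classes. Broad peaks found elsewhere did change with width. Their median number of day 14 peaks within 50 kb was 29 at 1000 to 1249 bp, 42 at 2000 to 2999 bp and 46 from 3000 bp. Their share in the last 5 Mb was 8.21%, 10.6% and 13.6% in the same classes. The members' difference from them was thus smaller among the widest peaks. Just under the cutoff, the 6108 day 14 only regions of 750 to 999 bp were much like the members, with a median of 48 peaks within 50 kb, 16.4% (interval 15.5% to 17.4%) in the last 5 Mb, 0.278% on X and a density on chromosomes 18, 19 and 25 of 3.56 times the rest. The steeper part of the gradient lay below them, where the median was 24 for day 14 only regions of 125 to 199 bp and 38 for 300 to 499 bp. No step in these values was seen at 1000 bp.

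Part of the members stood in groups. With neighbours at most 50 kb apart, 2289 members (45.6%, interval 44.2% to 47%) formed 457 runs of 3 or more, 976 (19.4%) were in pairs and 1757 (35%) stood alone. Runs of 10 or more numbered 35 and held 495 members. Of the 6108 day 14 only regions of 750 to 999 bp, 45.4% were in runs, and of the 11108 broad peaks found elsewhere 51.3% (50.4% to 52.2%), with 100 runs of 10 or more. Both classes are more numerous than the members, which by itself makes runs more frequent. The share of members in runs was 27.7% with gaps of at most 20 kb, 19.1% with a width cutoff of 1500 bp, 13.2% with one of 2000 bp and 77.7% with peaks up to 500 bp apart joined. Another member lay within 10 kb of 1772 members (35.3%, 34% to 36.6%), against 31.2% (30% to 32.4%) for the 750 to 999 bp regions measured among themselves. For broad peaks found elsewhere, also measured among themselves, it was 34.5% (33.6% to 35.4%), close to the members.

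The longest run was on chromosome 25, where 32 members stood between 41945501 and 42366810, a span of 421 kb that ended 0.535 Mb from the last position on the chromosome. The members covered 10.4% of this span, which held 348 day 14 peaks and 13 broad peaks found elsewhere. A second run on that chromosome, from 41482205 to 41692571, had 20 members covering 15% of 210 kb and only 1 broad peak found elsewhere. Runs of 26 members were found on chromosome 16 (52421307 to 52728033) and on chromosome 11 (105671134 to 106004504), and a run of 21 on chromosome 29 (49884681 to 50251984). Of these 5 runs, 4 ended 0.535 to 1.3 Mb from the last position of their chromosome, and the run on chromosome 16 lay 29 Mb from it.

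At the scale of 1 Mb windows, 1172 of 2678 windows (43.8%) held a member, with a median of 2 in those that did. Windows with 10 or more members numbered 122 and held 1991 of the regions (39.6%). The fullest was on chromosome 16 between 52 and 53 Mb, with 40 members among 681 day 14 peaks, and its widest member ran from 52450915 to 52454539 (3625 bp). It was followed by chromosome 25 between 41 and 42 Mb with 39, the widest from 41605779 to 41608769 (2991 bp), and by 3 windows with 36 each. Those were chromosome 14 between 2 and 3 Mb, which holds the 6021 bp region named above, chromosome 25 between 0 and 1 Mb (widest from 494842 to 497163, 2322 bp) and chromosome 29 between 50 and 51 Mb (widest from 50829763 to 50832157, 2395 bp). In the chromosome 25 window between 41 and 42 Mb, 84.8% of 46 broad day 14 peaks were in no other list. This was the highest share among the 10 fullest windows, where the lowest was 50.8%. The 10 fullest windows held 6.91% of the members and 1.92% of all day 14 peaks. They were ranked by number of members, so a larger share of members is built in. A high share of broad peaks in no other list is partly built in for the same reason.

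Absence from the other lists did not mean distance from them. A peak of another stage lay within 10 kb of 3736 members (74.4%, interval 73.2% to 75.6%), against 68.6% of all day 14 only regions and 68.5% (68.4% to 68.7%) of the narrow ones. The median distance was 4428.5 bp for members and 5377 bp for narrow regions, and 847 members (16.9%) had such a peak within 1 kb. The share within 10 kb was above that of narrow regions on 27 of 30 chromosomes, the regions of 750 to 999 bp having 75.4%. It was lower for members in the last 5 Mb of the autosomes, at 68.1% (65% to 71%), than for those in the rest, at 75.8% (74.5% to 77.1%). Narrow day 14 only regions also had less there, 65.6% against 69%, as did the regions of 750 to 999 bp, 70.6% against 76.3%. A broad day 14 peak found elsewhere lay within 10 kb of 33.3% of members (32% to 34.6%) and of 16% (15.8% to 16.1%) of narrow day 14 only regions.

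The stages nearest to the members were those around embryonic genome activation and compaction, which also have the longest lists. The morula list came closest, with a peak within 10 kb of 2750 members (54.8%, interval 53.4% to 56.1%) against 45.8% of narrow day 14 only regions. It was followed by the 16-cell list (45.2% against 40.6%), the in vivo morula list (38.2% against 32.4%) and the 8-cell list (31.8% against 29.4%). The order followed list length except that the in vivo morula list, shorter than the 8-cell list, came before it. In 37.6% of members the nearest peak of any other stage was a morula peak.

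Short lists gave few neighbours, but their shares did not follow list length. GV oocyte peaks, from the immature oocyte arrested in meiotic prophase, were within 10 kb of 7.23% of members (interval 6.53% to 7.98%) and 5.44% of narrow regions (5.36% to 5.52%), and 4-cell peaks of 6.05% and 5.14%. For the 2-cell list, of 2636 peaks, the shares were 4.18% (3.64% to 4.77%) and 2.96% (2.9% to 3.02%). The blastocyst list was longer, at 3397 peaks, and the in vivo blastocyst list had 2587. The blastocyst is the last stage sampled before day 14, and blastocyst peaks were near 35 members, 0.697% (0.486% to 0.968%), against 0.954% (0.919% to 0.989%) of narrow regions. For blastocysts derived in vivo it was 30 members, 0.597% (0.403% to 0.852%), against 0.846% (0.814% to 0.88%). In the MII oocyte list and both blastocyst lists the intervals of the classes overlapped, and in the other 7 lists they did not. Because the intervals treat neighbouring regions as independent and many members stood in groups, this is a description and not a test.

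**Figure D5:**
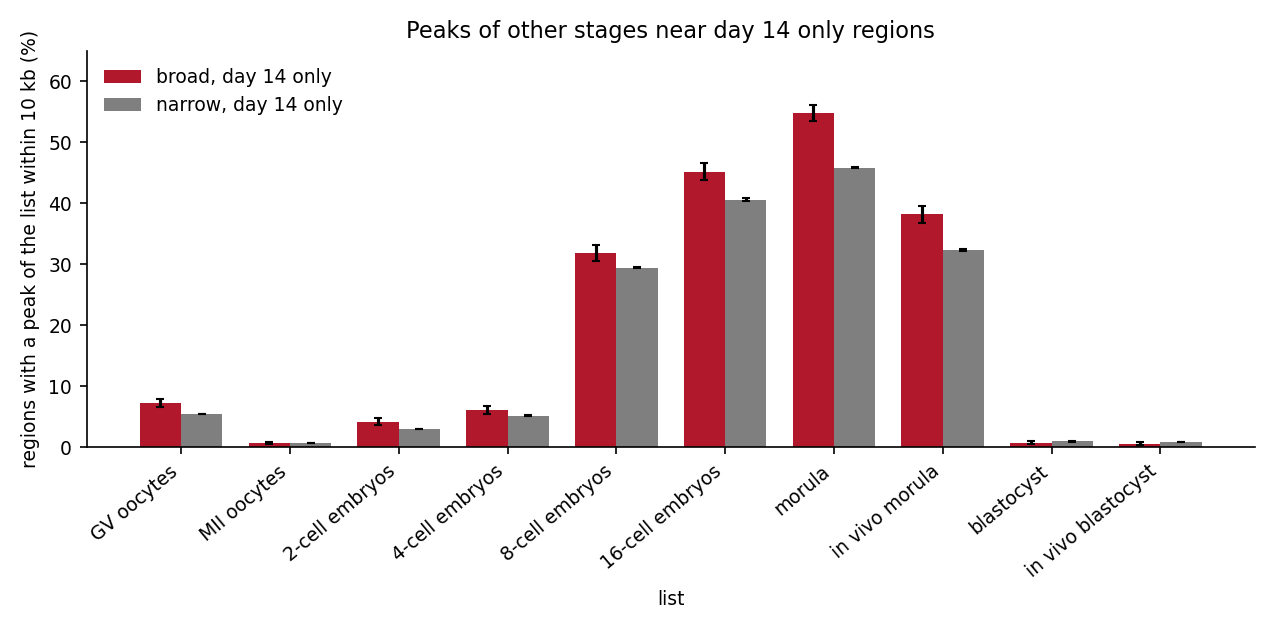
Share of broad (red) and narrow (grey) day 14 only regions with a peak of each other list within 10 kb (%, with 95% exact intervals). The morula list is highest, at 54.8% and 45.8%, and both blastocyst lists are below 1%.

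For comparison, the broad day 14 peaks that were excluded from the members for a peak in another list overlapped a morula peak in 87.9% of cases, an in vivo morula peak in 74.7%, a 16-cell peak in 68.4% and an 8-cell peak in 54.9%. Only 2.31% overlapped a blastocyst peak and 2.63% an in vivo blastocyst peak. Most had several stages, 36.2% being in 4 other lists and 17.2% in just 1. Those found in just 1 other list numbered 1906. Had the morula list not been counted, the members would have numbered 6010, and without any single one of the other lists between 5023 and 5416.

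The members at both extremes of distance were single cases. The closest, on chromosome 13 from 54188654 to 54189775, ended or began 1 bp from an in vivo morula peak. It was followed by regions on chromosome 2 (36336481 to 36337720, 5 bp away), chromosome 18 (57986486 to 57988133, 6 bp) and chromosome 4 (108439601 to 108440810, 7 bp). The member farthest from any other stage, on chromosome 19 from 13769725 to 13771532 (1808 bp), lay 145 kb from the nearest such peak and had 35 other day 14 peaks within 50 kb. The next were on chromosome 19 (8350854 to 8351939, 102 kb away), chromosome 23 (52143508 to 52144937, 100 kb), chromosome 29 (47419185 to 47420440, 98.5 kb) and chromosome 24 (3974269 to 3975916, 87.1 kb). These 5 had 16 to 50 day 14 peaks within 50 kb and none of any other stage, and each stood outside the runs of members.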

How the data were processed

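ATAC-seq peak positions of 11 groups of cattle oocytes and embryos were used. The deposited lists hold chromosome, start and end only, and the authors had merged all libraries of a stage, per the series' design text. The submitters' processing notes name HOMER, bedtools, MACS2 and Bowtie2 2.3, and build UMD3.1. Thresholds, shifting of reads and the merging rule, not given in the sources used here, affect the number and width of peaks. Lists were read as BED, which they do not state, so a start could be off by 1 base. Chromosome lengths were the last position in any list (2661 Mb in all), and distances run between edges. Gene and sequence context was planned and is not analysed here, since the gene table at hand is of another assembly. Members, region lists and measures were chosen with earlier results of these data known. Regions named were the 10 widest members, the 5 fullest 1 Mb windows, the longest runs, the 5 farthest and the closest members, and the widest on X. Of 200 planted members 200 were recovered in simulated lists, and all 5022 real members and their distances equalled those of bedtools 2.31.1. Scripts ran in Python 3.11.15 with pandas 2.3.3, numpy 2.4.6, matplotlib 3.10.9 and scipy 1.17.1.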

Additional observations from a re-analysis of the deposited data

How the results depend on the processing

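No test was run, and an alternative value was compared with the 95% interval of the reported one (for the number of members, with 1.5 times). Of 159 alternative values 103 stayed within. All values did so without the GV, MII, 2-cell, 4-cell, blastocyst or in vivo blastocyst list, and without X. The values outside were as follows. A width cutoff of 800 bp gave 9341 members, 36.8% of broad peaks in no other list and 60.3% of members in runs. A cutoff of 1500 bp gave 1391 members, 25.2% of broad peaks, 19.1% in runs and 19.9% in the last 5 Mb (distal). At 2000 bp there were 462 members, 22.3% of broad peaks, 0 on X (which allows up to 0.649%), a density on chromosomes 18, 19 and 25 of 3.34 times the rest, 72.9% within 10 kb of another list, a median of 52 day 14 peaks within 50 kb, 13.2% in runs and 20.3% distal. Joining peaks up to 500 bp apart gave 17223 regions, 47.8% of the joined broad regions, 70% within 10 kb, 77.7% in runs and 17.5% distal. Counting a list only where it covered 50% or more of the region's bases gave 8111, 50.3%, 0.308% on X, 84.1% within 10 kb, 47 peaks, 58.2% in runs and 17.1% distal. Regions that overlap another list are then let in, which by itself raises the share within 10 kb. Widening the other lists by 500 bp gave 28.6%, 72.1% within 10 kb and 43.3% in runs, and by 2000 bp 22%, 63.7% and 36.8%. Widening drops the regions closest to another list, which by itself lowers the share within 10 kb. Without the 8-cell list the share of broad peaks was 32.3% and that within 10 kb 72%, and without the in vivo morula list 33.6% and 72.5%. Without the 16-cell list they were 33.1% and 70.3%, with 47.2% in runs, and without the morula list 37.3% and 68.5%, with 50% in runs. Without the 10 fullest windows the values were 30% of broad peaks, density 3.23, 47 peaks, 42.1% in runs and 16.4% distal. Other distances gave 53.7% within 5 kb and 93.5% within 25 kb of another list, 26 day 14 peaks within 25 kb and 93 within 100 kb, 27.7% in runs with gaps of 20 kb and 61.8% with 100 kb, and 10.9% in the last 2 Mb and 31.3% in the last 10 Mb, each by construction. The number of members and the share in runs depend most on the width cutoff and on joining, whereas the density on chromosomes 18, 19 and 25 stayed between 3.23 and 3.89 and the median number of day 14 peaks within 50 kb between 47 and 52 wherever the distance was kept. No paired analysis was possible because each group is 1 merged list, and for the same reason no library could be left out.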
